A study of Mus musculus with 4 samples.

Results

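The 10 genes described here encode structural proteins of young neurons and their growth cones: the beta tubulins Tubb3, Tubb2a and Tubb2b, the stathmin Stmn2, the neurofilament subunits Nefl, Nefm and Ina, the microtubule-associated proteins Map1b and Map2, and the growth cone protein Gap43. They were chosen by symbol out of 24971 genes in the files, all 10 were found, and all 10 were among the 10757 genes that passed the filter on low counts. The libraries hold RNA of mouse neural tubes at E12.5 (C57BL/6 background), of which 2 carry the label WT, for wild type, and 2 the label Lbx1Δ/Δ, numbered 1 and 2 within each genotype. Each library was a pool of tubes of 1 genotype from 1 litter, so each value is a mean over several embryos, and no other allele or treatment is named in the labels. The labels give neither the part of Lbx1 that was deleted nor what a replicate number stands for, so number 1 and number 2 are used only as the labels' own names.

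A newborn neuron leaves the ventricular zone, stops dividing and builds an axon whose shaft is held up by microtubules and neurofilaments and whose tip, the growth cone, explores its surroundings. Microtubules are polymers of alpha and beta tubulin, and vertebrates have several beta tubulin genes, of which Tubb3 is used in the embryo almost wholly by neurons, while Tubb5 is broadly expressed and is also made by dividing cells. Neurofilaments are intermediate filaments that are assembled from several subunits, among which Ina (alpha-internexin) is typically made early, as neurons start to differentiate. In the spinal cord of this stage these genes are on in neurons of every class, so a pool of tubes shows their sum over all classes.

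The tubulin genes differ little in sequence, which matters for how far their counts can be told apart. The coding sequences of Tubb2a and Tubb2b were 96.5% identical, and those of Tubb3 and Tubb2b 83.4% identical, in transcripts of GENCODE M21 (GRCm38). The last 60 coding bases, stop codon included, are shown because they encode the acidic tail in which beta tubulins differ most. Capitals mark the bases of Tubb2b that differ from Tubb2a, and the bases of Tubb2a and Tubb3 that differ from Tubb2b or have no partner there in the alignment.
Tubb2b: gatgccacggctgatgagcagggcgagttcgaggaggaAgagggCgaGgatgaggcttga
Tubb2a: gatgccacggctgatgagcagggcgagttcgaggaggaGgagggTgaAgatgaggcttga
Tubb3: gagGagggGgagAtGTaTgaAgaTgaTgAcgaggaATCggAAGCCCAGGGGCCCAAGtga
Tubb2a and Tubb2b differed at 3 of these 60 bases, whereas 30 bases of the Tubb3 end were in capitals. Of all windows of 50 bases in the transcripts, 49.6% of those of Tubb2a and 39.3% of those of Tubb2b also occurred, letter for letter, in a transcript of another gene, mostly in each other. For the other 8 genes the share was 0%. The counts of Tubb2a and Tubb2b are therefore uncertain, both as a split between the pair and as a total. How the authors treated reads that match both is not given in the sources used here. This limit also holds for their shares and ranks below.

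Between 16853984 and 20579803 reads had been counted per library. Levels are given as CPM, the counts scaled to the library total, and where 4 values are given the first value of each genotype is library 1 and the next is library 2. Lbx1, the targeted gene, had 819 and 1379 counts in WT and 1946 and 6520 counts where the label is Lbx1Δ/Δ. The counts were thus higher, not lower, under that label. Whether this reflects the deletion or the labels was not tested, so every genotype direction below is between libraries as labelled. The labels do not say whether libraries of the same number came from the same litter or from different litters, and a p-value here measures only how far these 4 libraries spread.

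All 10 genes were higher in both libraries numbered 2 than in both libraries numbered 1, whichever genotype was on the label, as were 34.1% of all tested genes. Together they took 1.19% and 1.34% of all counts in WT library 1 and library 1 labelled Lbx1Δ/Δ, and 2.16% and 2.38% in WT library 2 and library 2 labelled Lbx1Δ/Δ. As each genotype has 1 library of each number, the split by number alone makes the 2 genotypes overlap for each of the 10 genes. Among all tested genes, values of the 2 genotypes did not overlap for 20.6%. Fewer neurons and less of each RNA per neuron cannot be told apart in such pools.

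**Figure D1:**
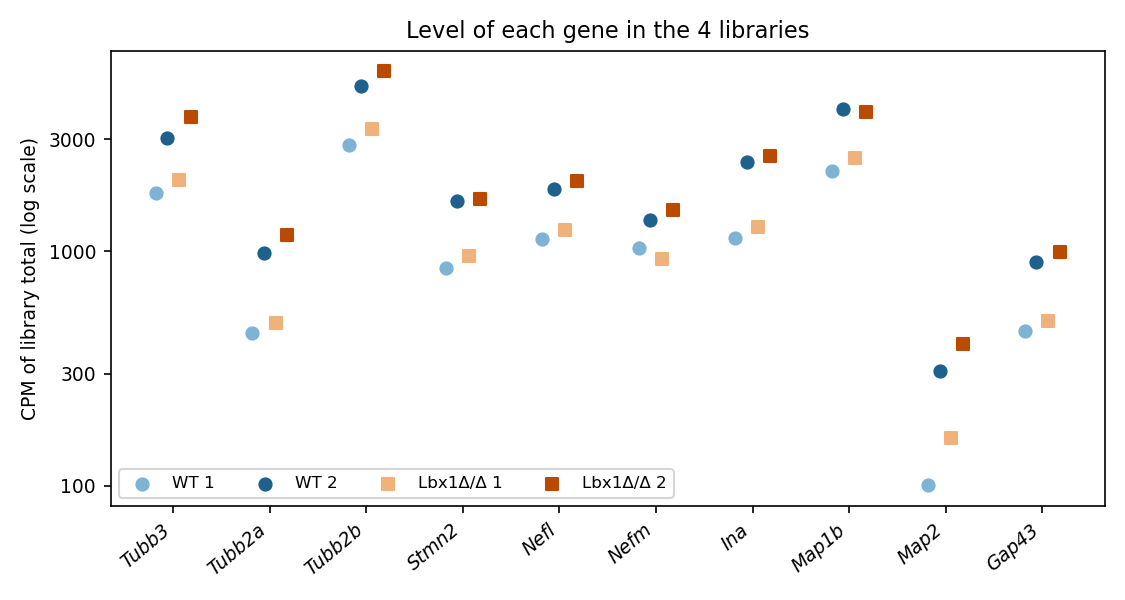
Level of each of the 10 genes in the 4 libraries, as CPM of the library total on a log axis; circles are WT and squares the libraries labelled Lbx1Δ/Δ, with pale symbols for number 1 and dark symbols for number 2. For every gene both dark symbols lie above both pale ones, Tubb2b for example spanning 2841 to 5841 CPM and Gap43 456 to 988 CPM; the level of Map2 rests on a part of its transcripts.

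Tubb3, the beta tubulin most used as a marker of neurons, was at 1766 CPM in WT library 1 and 3048 CPM in WT library 2, and at 2021 and 3748 CPM in the libraries of the Lbx1Δ/Δ label. Both libraries numbered 2 were above both numbered 1, by 1.73-fold within WT and 1.85-fold within Lbx1Δ/Δ. The fitted log2 difference between numbers was 0.82 (SE 0.13, edgeR quasi-likelihood test, Benjamini-Hochberg adjusted p = 0.00174). Tubb2b, a beta tubulin needed for the migration of young neurons, was at 2841 and 5052 CPM in WT and at 3329 and 5841 CPM in Lbx1Δ/Δ, the highest level of the 10 genes in every library. Its ratios of number 2 to number 1 were 1.78-fold and 1.75-fold, close to those of Tubb3. Tubb2a, its near copy, was at 446 and 982 CPM in WT and at 493 and 1173 CPM in Lbx1Δ/Δ. With ratios of 2.20-fold and 2.38-fold, Tubb2a had the larger difference of the pair in both genotypes (fitted log2 1.18, SE 0.12, against 0.80, SE 0.12, for Tubb2b). The difference between these fitted values was not tested.

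Seen within the beta tubulin family, the same split appeared without any scaling between libraries. Of the counts of 8 beta tubulin genes, Tubb3, Tubb2a and Tubb2b together held 41.7% and 44.1% in the number 1 libraries (WT, Lbx1Δ/Δ) and 53.7% and 57.0% in the number 2 libraries, with 95% Wilson intervals of at most 0.2 percentage points to either side, which cover counting error only. Tubb5 made up 49.1% and 47.1% in number 1 and 38.7% and 36.1% in number 2. Its own level was nearly flat, at 5947 and 6540 CPM in WT and 6252 and 6817 CPM in Lbx1Δ/Δ. Per base of transcript length, the ratio of Tubb3 to Tubb5 was 0.42 and 0.46 in number 1 and 0.66 and 0.78 in number 2. The ratio of Tubb2b to Tubb3 per length stayed between 1.33 and 1.42 in the 4 libraries, while that of Tubb2b to Tubb2a was 4.70 and 4.98 in number 1 and 3.80 and 3.67 in number 2.

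The remaining tubulins divided as well. Of 9 other alpha and beta tubulins listed, 8 were tested, 2 were called higher in number 2 and 3 lower, with a median fitted log2 difference of −0.27. Tuba1a, the main alpha tubulin of developing neurons, was at 8030 and 11828 CPM in WT and at 8355 and 13778 CPM in Lbx1Δ/Δ (log2 0.62, SE 0.11, edgeR adjusted p = 0.00313). Tubb4a, a beta tubulin of neurons and oligodendrocytes, was at 329.8 and 644 CPM in WT and 407 and 735 CPM in Lbx1Δ/Δ (log2 0.89). Tuba1c, Tubb4b and Tubb6 were the 3 called lower in number 2, with log2 differences of −0.80, −0.36 and −0.47. Tuba1a took 77.8% and 79.2% of the counts of 5 alpha tubulins in number 1 and 85.7% and 87.4% in number 2, with 95% Wilson intervals of at most 0.19 percentage points to either side. Tubb4a, Tuba1c, Tubb4b and Tubb6 are named because the whole family was described, and this was decided after their values had been seen.

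**Figure D2:**
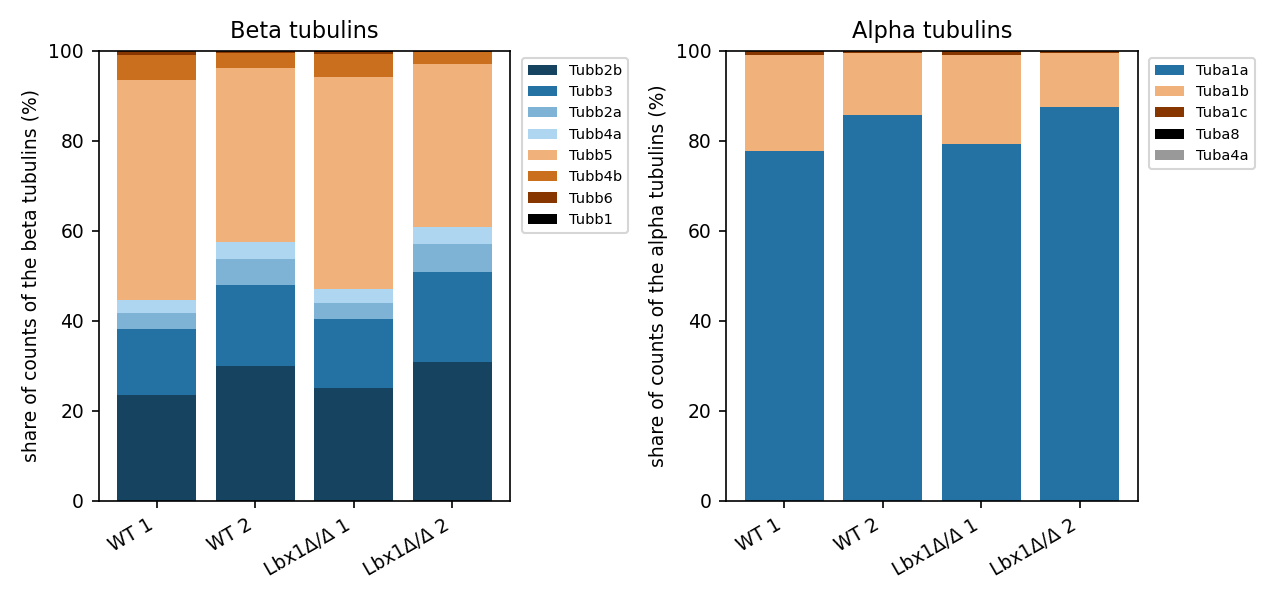
Share of each gene in the counts of the 8 beta tubulins (left) and of the 5 alpha tubulins (right) in each library, in percent, stacked from 0 to 100. Tubb2b, Tubb3 and Tubb2a (the 3 lowest segments on the left) sum to 41.7% and 44.1% in the number 1 libraries and to 53.7% and 57.0% in the number 2 libraries, and Tuba1a is at 77.8% and 79.2% against 85.7% and 87.4%.

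Stmn2 encodes a membrane-bound stathmin of the growth cone that destabilises microtubules. It was at 845 and 1642 CPM in WT and at 954 and 1677 CPM in Lbx1Δ/Δ, ratios of 1.94-fold and 1.76-fold between numbers (log2 0.86, SE 0.11, edgeR adjusted p = 0.00073). The 2 libraries of a number lay close together (899.5 ± 77.7 CPM in number 1 and 1659 ± 25 CPM in number 2, SD, n = 2). Stmn3, another neuronal stathmin, had a similar pattern at 284 and 575 CPM in WT and 312 and 601 CPM in Lbx1Δ/Δ. Stmn1, the stathmin that dividing progenitors also make, was at 2515 and 3574 CPM and at 2715 and 3417 CPM, a fitted log2 difference of 0.40 (SE 0.10, edgeR adjusted p = 0.0194).

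The 3 neurofilament genes were all called higher in number 2, by unequal fitted amounts whose difference was not tested. Nefl, the light subunit, was at 1122 and 1844 CPM in WT and at 1236 and 1997 CPM in Lbx1Δ/Δ, ratios of 1.64-fold and 1.62-fold. Nefm, the medium subunit, was at 1029 and 1357 CPM in WT and at 930.3 and 1493 CPM in Lbx1Δ/Δ, ratios of 1.32-fold and 1.60-fold. Nefm had the lowest fitted difference of the 10 genes (log2 0.52, SE 0.11, edgeR adjusted p = 0.00706), and it was the only one of them lowest in library 1 labelled Lbx1Δ/Δ and not in WT library 1. Ina was at 1143 and 2396 CPM in WT and at 1268 and 2558 CPM in Lbx1Δ/Δ, ratios of 2.1-fold and 2.02-fold (log2 1.02, SE 0.11, edgeR adjusted p = 0.000359).

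Relative to the other subunits, Ina was higher in both number 2 libraries than in both number 1 libraries. Per base of transcript length, Ina to Nefl was 1.06 and 1.07 in the number 1 libraries (WT, Lbx1Δ/Δ) and 1.36 and 1.34 in the number 2 libraries, and Ina to Nefm was 1.14 and 1.40 against 1.82 and 1.76. The ratio of Nefl to Nefm was 1.07 in WT library 1 and 1.31 to 1.34 in the other 3 libraries. WT library 1 thus stood apart in holding more Nefm relative to the other subunits. Nefh, the heavy subunit that neurons make later, was at 8.70 and 19.2 CPM in WT and 7.65 and 21.2 CPM in Lbx1Δ/Δ, and took at most 0.35% of the counts of the 4 subunits in any library. Nefh lies outside the rule for named genes and is given here because it completes the subunits.

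Map1b, a large microtubule-associated protein of growing axons, was at 2187 and 4056 CPM in WT and at 2488 and 3919 CPM in Lbx1Δ/Δ. Its ratios between numbers were 1.85-fold and 1.58-fold (log2 0.75, SE 0.11, edgeR adjusted p = 0.00142), and it was the only one of the 10 genes that was highest in WT library 2. Map2, whose protein is later restricted to dendrites and cell bodies, was at 100.3 and 307 CPM in WT and at 159 and 401 CPM in Lbx1Δ/Δ. It had the widest range of the 10 genes, 4.0-fold from the lowest to the highest library, and ratios between numbers of 3.06-fold and 2.53-fold (log2 1.43, SE 0.20, edgeR adjusted p = 0.00112).

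Map2 was also the only one of the 10 genes counted as several transcripts. Of its 3 RefSeq transcripts, 1 carried nearly all counts (2057 and 5189 in WT, 2736 and 6754 in Lbx1Δ/Δ), another had 3 to 11 counts per library and the third had 0. Counts of a transcript that shares exons with others may be partial, so the level of Map2 is uncertain, and its ratios hold only for the counted part. Its level cannot be set against those of the other 9 genes.

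Gap43 encodes a membrane protein of the growth cone and a long-used marker of axon outgrowth. It was at 456 and 903 CPM in WT and at 503 and 988 CPM in Lbx1Δ/Δ. The ratios between numbers were 1.98-fold and 1.96-fold, the fitted log2 difference was 0.96 (SE 0.11, edgeR adjusted p = 0.000505), and the genotypes within a number were within 1.10-fold of each other.

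Per kilobase of transcript, the order was Tubb2b, Tubb3, Stmn2 and Ina from the top in every library, with Map1b below the other single-transcript genes. In the mean over the 4 libraries Tubb2b was at 1955 and Tubb3 at 1416 CPM per kilobase, then came Stmn2 at 617, Ina at 568, Gap43 at 502, Tubb2a at 480.4, Nefl at 458, Nefm at 361 and Map1b at 268. The order between was not stable. Tubb2a was below Nefl in both number 1 libraries and above it in both number 2 libraries, and Gap43 likewise passed Nefl. Transcript lengths were those of GENCODE M21 and may differ from those the authors counted on.

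Between the numbers, 10 of 10 genes were called higher in number 2 by edgeR's quasi-likelihood test over all 10757 genes, and 0 lower. Of all tested genes, 13.3% were called higher and 12.2% lower, so differences of this kind were common and went both ways. The median fitted log2 difference was 0.84 over the 10 genes (range 0.52 to 1.43) and 0.00 over all genes tested. Among 6619 genes with a mean of at least 10 CPM, 1.06% had a larger difference than Map2, 2.49% larger than Tubb2a and 13.2% larger than Nefm. The 2 numbered groups did not overlap for any of the 10 genes. Without WT library 1, which leaves 1 library numbered 1, 0 of the 10 genes were called (median 0.74, lowest adjusted p = 0.0922), with 1 gene called over all, and without library 1 labelled Lbx1Δ/Δ again 0 were called (median 0.95, lowest adjusted p = 0.0663), with 6 over all. Since what a number stands for is not given in the labels, anything that the libraries of a number share cannot be told apart from the number itself.

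**Figure D3:**
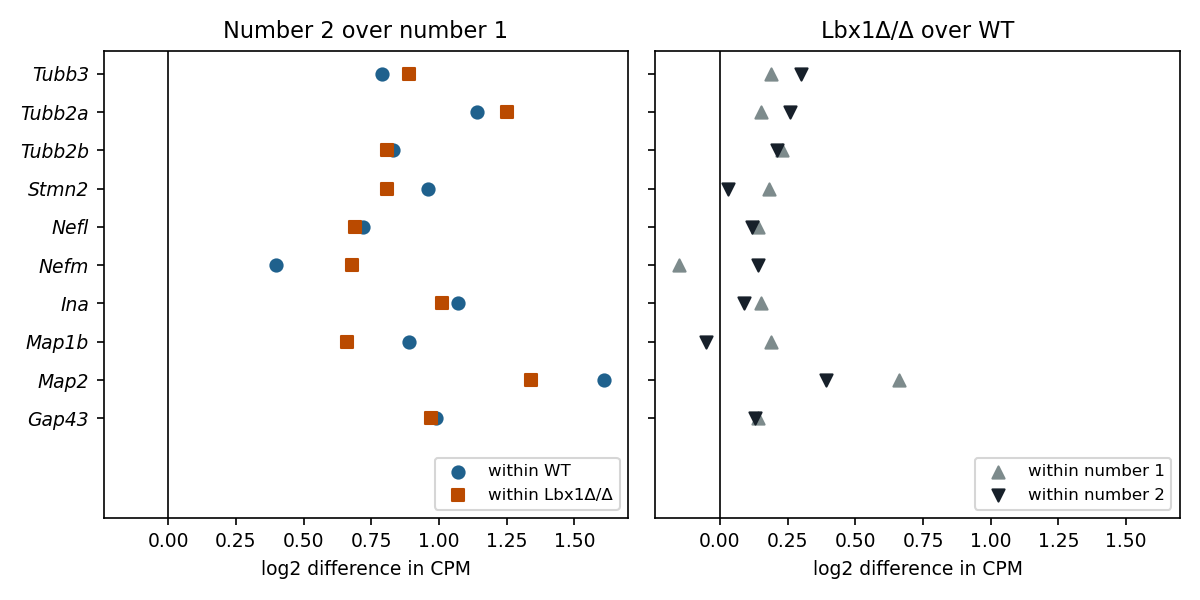
Log2 differences in CPM of the 10 genes between numbers within each genotype (left) and between genotypes within each number (right), on 1 shared axis, with 1 library on either side of each difference. On the left all points lie between 0.40 and 1.61, and on the right between −0.15 and 0.66.

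In the study's own comparison, Lbx1Δ/Δ against WT, the fit on genotype alone called 0 of the 10 genes. Fitted log2 differences were 0.01 (Nefm) to 0.44 (Map2), with a median of 0.11, against −0.00 over all genes, and SE values of 0.30 to 0.67 that include the difference between numbers (edgeR adjusted p = 0.9998 for each of the 10). Of all 10757 genes 0% were called in either direction (0 genes, with 55 at an unadjusted p below 0.05, none of them among the 10). DESeq2 and limma-voom, also fitted on genotype alone, called 0, with 33 and 61 at an unadjusted p below 0.05. Tubb3 was at 2407 ± 907 CPM in WT and 2884 ± 1221 CPM in Lbx1Δ/Δ (SD, n = 2), and Gap43 at 679.7 ± 316 and 746 ± 343 CPM. For both genes the SD within a genotype, which includes the difference between numbers, was larger than the difference between the means.

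Within a number the genotypes lay close together for most of the 10 genes, with Map2 the widest apart. In number 1, 9 of the 10 genes were higher in Lbx1Δ/Δ, with ratios of 0.90-fold (Nefm) to 1.58-fold (Map2) and a median of 1.12-fold. In number 2, 9 of 10 were also higher, from 0.97-fold (Map1b) to 1.31-fold (Map2), with a median of 1.10-fold. Each such ratio compares 1 library with 1 library and carries no test. A fit with both factors, described at the end, called 1 of the 10 genes, Map2, though the labels do not say that a number pairs libraries. Tubb3 had ratios of 1.14-fold and 1.23-fold, Tubb2a 1.11-fold and 1.20-fold, and Tubb2b 1.17-fold and 1.16-fold. The fit on genotype depended on which libraries were present. Its median over the 10 genes turned to −0.21 without WT library 1 and −0.36 without library 2 labelled Lbx1Δ/Δ. It was 0.68 without WT library 2 and 0.52 without library 1 labelled Lbx1Δ/Δ. Each of these fits left 1 genotype with libraries of 1 number only, so these medians include the difference between numbers.

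Other genes of the cytoskeleton, the growth cone and neurons were taken from 6 lists of 81 genes. Of these 53 were tested, 28 were called higher in number 2 and 5 lower, with a median log2 difference of 0.72, and 0 were called between genotypes (median 0.13). All 28 that were not tested had several RefSeq transcripts, as did 16 of the 53 that were tested. Among them were Mapt, Dcx, Snap25, Syt1 and Prph, which had from 0 to 13 counts in each library, so low counts of these neuronal genes say nothing of their expression here.

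Of the microtubule-associated proteins and stathmins 7 of 18 were tested, and 6 were called higher in number 2 (median 0.89). Map6, which stabilises neuronal microtubules, and whose value is uncertain since 3 transcripts were counted, was at 109.8 and 212 CPM in WT and at 125 and 229.7 CPM in Lbx1Δ/Δ. Of the kinesins 6 of 8 were tested, 3 were called higher and 1 lower. Kif5c, a neuronal motor of axonal transport, was at 791 and 1477 CPM in WT and 889 and 1621 CPM in Lbx1Δ/Δ, whereas the broadly expressed Kif5b was at 387 and 445 CPM and at 367 and 408 CPM (log2 0.16, edgeR adjusted p = 0.294).

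Growth cone and axon outgrowth proteins were mixed, with 8 of 16 tested genes called higher and 0 lower (median 0.70). Of those called, Crmp1, Dpysl3, Fez1 and Shtn1 have several RefSeq transcripts, so their values are uncertain. The 3 most abundant members of the list did not pass. Marcksl1 was at 2336 and 2511 CPM in WT and 2454 and 2702 CPM in Lbx1Δ/Δ, Marcks had a log2 difference of −0.14 and the actin-bundling Fscn1 one of 0.08. Of 4 tested genes of the other intermediate filaments, 1 was called higher (Nefh) and 1 lower (Lmnb1, log2 −0.43, edgeR adjusted p = 0.0156). The progenitor genes Vim and Nes did not pass, with log2 differences of −0.03 and −0.14 (edgeR adjusted p = 0.878 and 0.353). Vim was at 2480 and 2497 CPM in WT and 2499 and 2455 CPM in Lbx1Δ/Δ, nearly level where Nefl, Nefm and Ina were not.

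Neuron markers from outside the cytoskeleton differed between numbers by about as much as the 10 genes. Of 12 tested 8 were called higher in number 2, with a median of 0.91. Elavl3, an RNA-binding protein of neurons, was at 437 and 834 CPM in WT and 506 and 1047 CPM in Lbx1Δ/Δ, and Cntn2, an adhesion protein of early axons, at 482 and 828 CPM and 575 and 1091 CPM. The summed level of the 10 genes over that of the neuron markers was 5.47 in both WT libraries and 5.23 and 4.87 in those labelled Lbx1Δ/Δ. Set against genes of proliferation, the sum was 2.71 and 2.91 in number 1 and 7.38 and 10.51 in number 2. Set against neural progenitors, it was 5.01 and 4.89 in number 1 and 7.33 and 7.66 in number 2. The most abundant gene of the progenitor list was Fabp7, itself called higher in number 2 (log2 0.77, edgeR adjusted p = 0.00159). Of the other progenitor genes 3 were called lower, and the ratio without Fabp7 was not computed. The sum of the 10 genes thus varied least against that of the neuron markers, more against that of neural progenitors and most against that of proliferation genes. This holds for the sum and was not tested, and single genes such as Map2 and Nefm had larger and smaller differences between numbers than the median of the neuron markers.

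**Figure D4:**
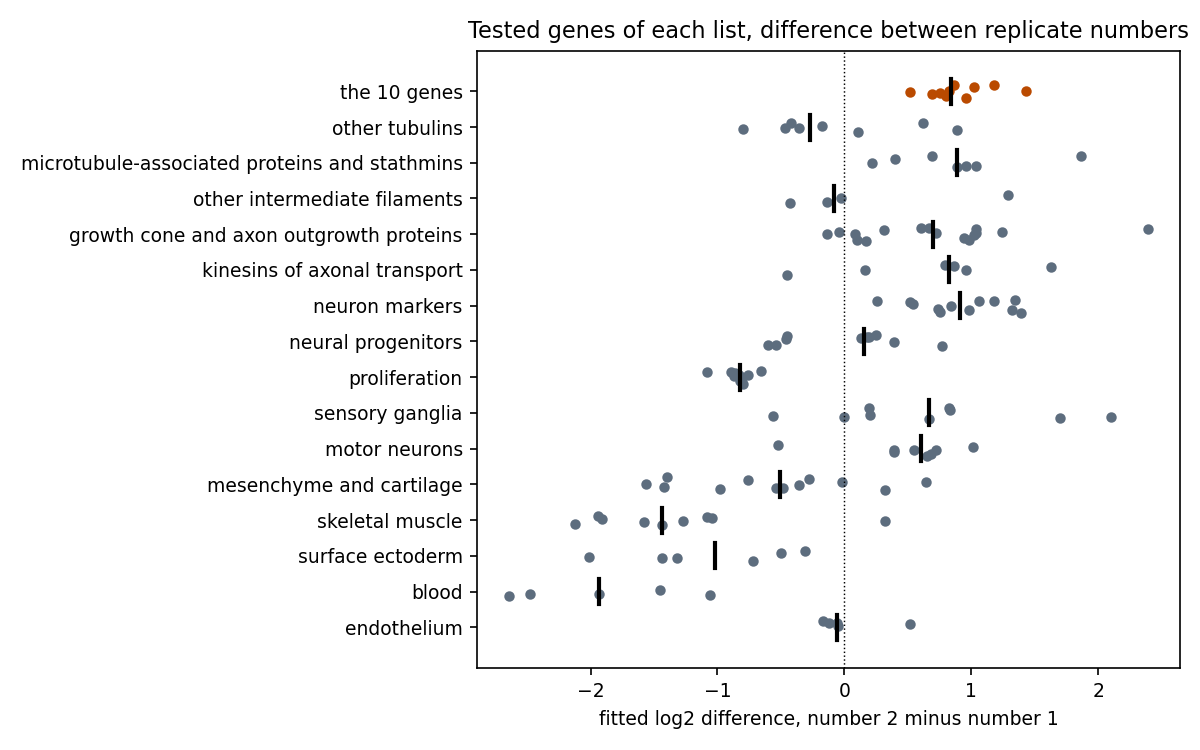
Fitted log2 difference between numbers (2 minus 1) for each tested gene of each list, with the list median as a black bar; the 10 genes are in orange and the vertical scatter within a row carries no value. The medians of the 10 genes (0.84), of neuron markers (0.91) and of microtubule-associated proteins and stathmins (0.89) lie to the right of 0, and those of proliferation (−0.83), skeletal muscle (−1.43), surface ectoderm (−1.02) and blood (−1.93) to the left.

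Markers of other cells moved with the same contrast. All 10 tested genes of proliferation were called lower in number 2 (median −0.83), Top2a being at 1226 and 794 CPM in WT and 1259 and 583 CPM in Lbx1Δ/Δ. Of 10 tested genes of neural progenitors 1 was called higher, Fabp7, and 3 lower (median 0.15). All 5 tested blood genes were called lower, the summed level of that list being 8344 and 5982 CPM in number 1 and 2820 and 2635 CPM in number 2. Skeletal muscle (5 of 9 called lower, summed 885 and 757 against 422 and 135 CPM) and surface ectoderm (3 of 6, 151 and 116 against 96.3 and 60.7 CPM) were lower too. Mesenchyme and cartilage had 5 of 12 called lower, but its sums overlapped. They were 6804 and 4917 CPM in number 1 and 5089 and 4514 CPM in number 2. Endothelium had a median of −0.06, with 1 of 5 called higher. The RefSeq accession NR_046233, which the tables used here do not name, took 0.635% and 0.557% of all counts in number 1 and 0.311% and 0.415% in number 2. Of these lists, Pax6, Mcm5, Bub1, Tnnt1, Tnnt2, Trp63, Alas2, Pecam1 and Tek had 0 counts in all libraries. Each has several RefSeq transcripts, so these 0 counts say nothing of their expression here. The part of these tissues, and of that accession, in the values of the 10 genes was not tested.

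Sensory ganglia and motor neurons, whose axons are rich in neurofilaments, were on the higher side in number 2. Of 9 tested genes of sensory ganglia 5 were called higher and 1 lower (median 0.67). The summed level of that list was 363 and 332 CPM in number 1 and 487 and 555 CPM in number 2. Runx1, at 0 counts throughout, has several RefSeq transcripts, so its counts say nothing of its expression here. Of 8 motor neuron genes 3 were called higher and 1 lower (median 0.60). Isl1, called higher, was at 123 and 189 CPM in WT and 123 and 204 CPM in Lbx1Δ/Δ. Slit3, next in level, was the 1 called lower (log2 −0.52, edgeR adjusted p = 0.0102). It was at 93.8 and 68.1 CPM in WT and 88.2 and 60.2 CPM in Lbx1Δ/Δ. The list summed to 303 and 309.9 CPM in number 1 and to 389 and 422 CPM in number 2. Isl1 is also expressed in sensory ganglia. How much of the neurofilament counts came from either was not tested.

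The genes outside the 10 whose pattern over the 4 libraries lay nearest to the median pattern of the 10 were Map6, Kif5c, Mab21l2, Plppr1 and Nbea, among 6609 genes with a mean of at least 10 CPM. Likeness was the Euclidean distance of log2 CPM centred on each gene's mean, which was 0.04 to 0.06 for these 5. Among the 10 genes themselves it ran from 0.08 for Stmn2 and Gap43 to 0.44 for Nefm and 0.68 for Map2. Mab21l2 was at 276 and 526 CPM in WT and 300.2 and 568 CPM in Lbx1Δ/Δ. With 4 libraries, such distances are a description only.

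RefSeq promoter sequences (GRCm38.p6) were matched for 5 of the 10 genes: Tubb3, Tubb2a, Ina, Map1b and Map2. The 250 bases before the transcript start are shown for Tubb2a and Ina, the single-transcript genes with the largest differences between numbers. Capitals mark every match, on either strand, to 3 motifs. The first, TATAAA, is a core promoter element that positions the start of transcription. The second, CANNTG, is the E-box, the kind of site that proneural factors can bind. The third, GGGCGG, is bound by factors of the Sp family.
Tubb2a, chr13:34078009-34078258, minus strand: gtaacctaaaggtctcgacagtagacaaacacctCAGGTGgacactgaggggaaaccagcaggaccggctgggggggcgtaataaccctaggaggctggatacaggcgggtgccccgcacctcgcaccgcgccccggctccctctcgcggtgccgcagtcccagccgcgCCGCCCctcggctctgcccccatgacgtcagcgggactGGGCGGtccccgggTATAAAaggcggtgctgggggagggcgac
Ina, chr19:47014431-47014680, plus strand: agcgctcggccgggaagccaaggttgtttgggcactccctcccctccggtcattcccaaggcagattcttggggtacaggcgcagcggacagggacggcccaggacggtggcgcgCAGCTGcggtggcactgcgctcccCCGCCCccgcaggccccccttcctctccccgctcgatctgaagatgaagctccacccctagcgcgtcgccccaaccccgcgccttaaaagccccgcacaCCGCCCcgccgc
GGGCGG matched in all 5 promoters and in 32.7% of 32851 promoters of the same length. CANNTG matched in 3 of the 5 (Tubb2a, Ina and Map1b) and in 66.2% of all, and TATAAA in 2 of the 5 (Tubb2a and Map1b) and in 12.4%. The motifs do not overlap one another in the sequences shown, and a match is a run of letters, not a bound site.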

How the data were processed

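The authors deposited unscaled read counts for each RefSeq transcript, as the whole numbers and unequal totals of the files show. The submitters' processing notes name build mm9 with TopHat2 2.1.1, featureCounts 4.6.0.1 and edgeR 3.4.3. Which annotation and strand setting were used, and how shared reads were treated, is not given in the sources used here. Per the labels' protocols, libraries were made with a NEBNext Ultra kit from pooled neural tubes.

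Counts of 41411 accessions were summed per symbol through a RefSeq table of GRCm38 (41218 matched, 97 more through GENCODE, 96 unnamed and kept as they were). A count of 0 allowed 0.146 to 0.178 CPM (3 counts). Genes passing edgeR's filterByExpr by genotype (minimum count 10, minimum total 15) were tested with TMM scaling (factors 0.993 to 1.02) and glmQLFTest (edgeR 4.0.16, R 4.3.3), two-sided, once for genotype and once for replicate number with no other covariate, with Benjamini-Hochberg adjustment over all genes at 0.05. SE was obtained as the log2 difference over the square root of F. CPM in the text use the library total. Lists were described by counts and medians and not tested. The tests were tried on simulated counts, which for the genotype fit held no difference between numbers. That trial therefore does not show how the genotype fit behaves where such a difference is present.

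The 10 genes, the lists and the tests were chosen with earlier results of these data known. Named genes were the 10, Lbx1, up to 3 tested genes of highest mean level per list, and the 5 of nearest pattern (log2 CPM with 0.5 added); others, such as those listed at 0 or not tested, were named after their values were seen. Alternatives were RLE, upper-quartile and library-total scaling, no low-count filter, CPM above 1 in 2 libraries, DESeq2 1.42.0, limma-voom (limma 3.58.1), single-transcript genes only, both factors in 1 fit, and leaving out each library, in which case a lone library was taken to vary like the others. No 2 libraries of a genotype agreed within sampling noise (chi-square per gene 69 and 84.8).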

Additional observations from a re-analysis of the deposited data

How the results depend on the processing

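For replicate number, all 10 genes kept their direction under every alternative listed, and were called in each fit of all 4 libraries (9 of 9 when Map2 dropped out of the fit on single-transcript genes). Leaving out each library in turn gave 0 to 10 of the 10 genes called, 1 to 3917 genes called over all 10757 or more tested, and medians of 0.74 to 0.95. The 0 came without WT library 1 and without library 1 labelled Lbx1Δ/Δ, the cases with 1 library numbered 1. All fits that left out a library compared equally few libraries, and the cause was not tested. For genotype, medians ran from −0.36 to 0.68 when 1 library was left out. Each such fit left 1 genotype with 1 number only, so these values, and those per gene below, include the difference between numbers. Nefm (0.01) turned to −0.00 without the low-count filter, −0.02 with limma-voom and −0.02 with the replicate block. Leaving out a library gave −0.25 to 0.68 for Tubb3, −0.53 to 0.88 for Tubb2a, −0.25 to 0.67 for Tubb2b, −0.38 to 0.62 for Stmn2, −0.26 to 0.50 for Nefl, −0.36 to 0.31 for Nefm, −0.48 to 0.72 for Ina, −0.34 to 0.53 for Map1b, −0.36 to 1.45 for Map2 and −0.44 to 0.69 for Gap43.

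With a replicate block, the genotype fit called 92 genes, 0.855% of those tested, and 1 of the 10 was among them. This was Map2, higher in Lbx1Δ/Δ by 0.51 on the log2 scale (SE 0.09, edgeR adjusted p = 0.0177). The other 9 had adjusted p-values of 0.331 or more in that fit, with log2 differences of −0.02 (Nefm) to 0.23 (Tubb3). The labels do not say that a number pairs libraries; deviations of same-numbered libraries from their genotype means had a correlation of 0.657 over 10757 genes. For the genotype comparison, scaling moved the median of all genes by at most 0.02.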
